A study of Drosophila melanogaster with 9 samples.

Results

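Many genes of Drosophila melanogaster still carry only a computed-gene number, a symbol made of CG and digits. Of the 15602 genes listed in ovarian follicles, 7708 had such a symbol, and 166 of those met 2 conditions on mean FPKM, a level relative to transcript length and sequencing depth. The wild-type stage 8 mean was at least 3 FPKM, and the wild-type stage 10 mean was at most 0.6 times the stage 8 mean. These 166 genes, called the falling CG genes here, were thus chosen by the wild-type values. How far their levels in stage 10 follicles of an EcR mutant lie toward stage 8 was not used to choose them.

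The 9 libraries form 3 groups of 3: stage 10 follicles of EcRts females, wild-type stage 10 follicles and wild-type stage 8 follicles. EcRts denotes a temperature-sensitive mutation of EcR. Each library was made from poly(A) RNA of 100 follicles dissected from adult females, and all 9 are labelled Oregon R and 6 to 14 days old, although the growth protocol puts the lowest age at 4 days. The wild type was kept at 25 °C, and the EcRts females were shifted 2 days after eclosion to a temperature that blocks receptor function. The sources used here give neither that temperature nor the alleles. The mutation and the shift act on the whole female, not on the follicle alone, so genotype and temperature differ together between EcRts and both wild-type groups and cannot be told apart.

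A follicle consists of germline cells, namely the oocyte and its nurse cells, enclosed by a layer of somatic follicle cells. Between stage 8 and stage 10 the oocyte takes up yolk, and the follicle cells move, change shape and begin to make the eggshell. EcR is the receptor of the steroid hormone ecdysone, acts as a transcription factor together with its partner usp, and is needed for follicles to pass through the middle of oogenesis. In bulk follicle RNA, fewer cells of a type and less RNA per cell cannot be told apart.

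The libraries held an implied 27.2 to 33.3 M fragments in EcRts, 17.5 to 21.3 M in wild-type stage 10 and 18.6 to 21.7 M in stage 8. Depth therefore moved with genotype. The median falling CG gene rested on 122.5 to 386 implied fragments in a library. EcR itself had 21.2, 19.9 and 20.8 FPKM in EcRts, 20.3, 22.6 and 20.1 FPKM in wild-type stage 10 and 19.0, 19.9 and 19.4 FPKM in stage 8. Its log2 difference between EcRts and wild-type stage 10 was −0.02 ± 0.05 (SE, limma adjusted p = 0.731), and an RNA level does not check a temperature-sensitive protein. Of 7 follicle cell markers 6 reached 1 FPKM in each EcRts library, 5 in each wild-type stage 10 library and 6 in each stage 8 library, and 7 of 7 germline markers did so in all 9. The follicle cell markers summed to 83.7 to 93.0 in EcRts, 73.9 to 86.9 in wild-type stage 10 and 111.0 to 119.1 FPKM in stage 8. The germline markers summed to 1302 to 1384, 1289 to 1409 and 1646 to 1805 FPKM in the same groups. Much of the germline sum was osk, at 567.5 to 603.9 FPKM in wild-type stage 10 and 897.9 to 1006 FPKM in stage 8. In orb and grk stage 8 was also higher than wild-type stage 10, while in nos, bcd, vas and otu it was lower. The follicle cell transcription factor gene tj had 50.1 to 61.3 FPKM in EcRts, 38.3 to 46.0 FPKM in wild-type stage 10 and 73.0 to 75.5 FPKM in stage 8. The markers eya and slbo had the same order of groups, at 6.42 to 6.59, 5.10 to 6.02 and 10.9 to 14.04 FPKM for eya and 1.07 to 1.14, 0.691 to 0.746 and 1.43 to 1.66 FPKM for slbo. In tj, eya and slbo EcRts thus lay between the wild-type groups, as in the part-way genes described below. The follicle cell marker Fas3 was instead higher in wild-type stage 10 than in stage 8, with EcRts again between the wild-type groups. Fas3 had 9.48 to 11.3 FPKM in EcRts, 17.2 to 20.03 FPKM in wild-type stage 10 and 6.37 to 6.79 FPKM in stage 8. In mirr, br and os the EcRts and wild-type stage 10 libraries overlapped. The follicle cell markers as a list therefore did not share a single order of groups. Markers of the surrounding muscle sheath summed to 17.4 to 23.1 FPKM over 7 genes in EcRts, 10.8 to 13.7 FPKM in wild-type stage 10 and 5.93 to 10.8 FPKM in stage 8, with none at 0 throughout. The 4 hemocyte markers summed to 6.85 to 10.2 FPKM in EcRts, 17.2 to 23.3 FPKM in wild-type stage 10 and 6.28 to 6.90 FPKM in stage 8. Nearly all of that sum was srp, a GATA factor gene, while Hml and Pxn stayed under 0.25 FPKM and He was at 0. The 4 fat body markers summed to 3.88 to 14.8 FPKM in EcRts, 7.11 to 14.8 FPKM in wild-type stage 10 and 2.66 to 3.68 FPKM in stage 8, nearly all of it the lipoprotein gene Rfabg. The 4 male seminal protein genes summed to at most 0.201 FPKM in EcRts, at most 0.346 FPKM in wild-type stage 10 and 2.61 to 12.3 FPKM in stage 8, nearly all of it Acp98AB. The part of these RNAs in the results was not tested.

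One stage 8 library stands apart for this gene group. For 17 falling CG genes more than 90% of the summed stage 8 signal came from replicate 2. Their FPKM added up to 0.648, 0.789 and 3.96 in EcRts, 43.0, 1.12 and 1.10 in wild-type stage 10, and 2.75, 471.2 and 1.12 in stage 8. Replicate 1 of wild-type stage 10 was thus the second highest library, far below stage 8 replicate 2. CG12374 (chromosome 2R, 8649617 to 8651330 in dm3, as are all positions here), which encodes a zinc carboxypeptidase of the digestive type, had 0.0223, 0 and 0.786 FPKM in EcRts, 25.7, 0.185 and 0.106 FPKM in wild-type stage 10 and 0.157, 113.9 and 0 FPKM in stage 8. The trypsin-family gene CG18180 had 0.0807, 0 and 0.132 FPKM in EcRts, 0.665, 0.134 and 0.192 FPKM in wild-type stage 10 and 0.170, 47.6 and 0.314 FPKM in stage 8. In both genes stage 8 replicate 2 alone makes the stage 8 mean, and the 2 wild-type groups overlap.

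All 8 falling CG genes listed here as digestive enzymes had this shape, and none passed the filter for the test. CG30025 and CG30031 among them are near-identical to other trypsin genes, so their separate levels are uncertain. CG10472 and CG17571, of the trypsin family, and CG17633, a carboxypeptidase gene, were also in this group. Of 39 digestive enzyme genes with other symbols, a list written after the data were seen, 1 to 2 reached 1 FPKM in each EcRts library. In wild-type stage 10 the numbers were 13, 1 and 1, and in stage 8 they were 1, 35 and 1. Their FPKM added up to 70.2 to 75.9 in EcRts, 204.0, 74.1 and 68.3 in wild-type stage 10, and 89.3, 1127 and 88.8 in stage 8. Outside wild-type stage 10 replicate 1 and stage 8 replicate 2, most of each sum was the 1 gene Mal-A5. It had 65.7 to 72.2 FPKM in EcRts, 64.0 to 71.2 FPKM in wild-type stage 10 and 85.7 to 95.7 FPKM in stage 8. The same 2 wild-type libraries are high for both sets of genes. Of 3 spermatheca and oviduct markers, the protease gene Send1 was also high in wild-type stage 10 replicate 1, at 11.5 FPKM, and at most 0.209 FPKM elsewhere. The other markers of that list did not follow it. In wild-type stage 10 replicates 1, 2 and 3, Send2 had 0, 0 and 0.313 FPKM and Oamb 0.965, 0.890 and 1.41 FPKM. The part of other tissues in these levels was not tested.

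**Figure D1:**
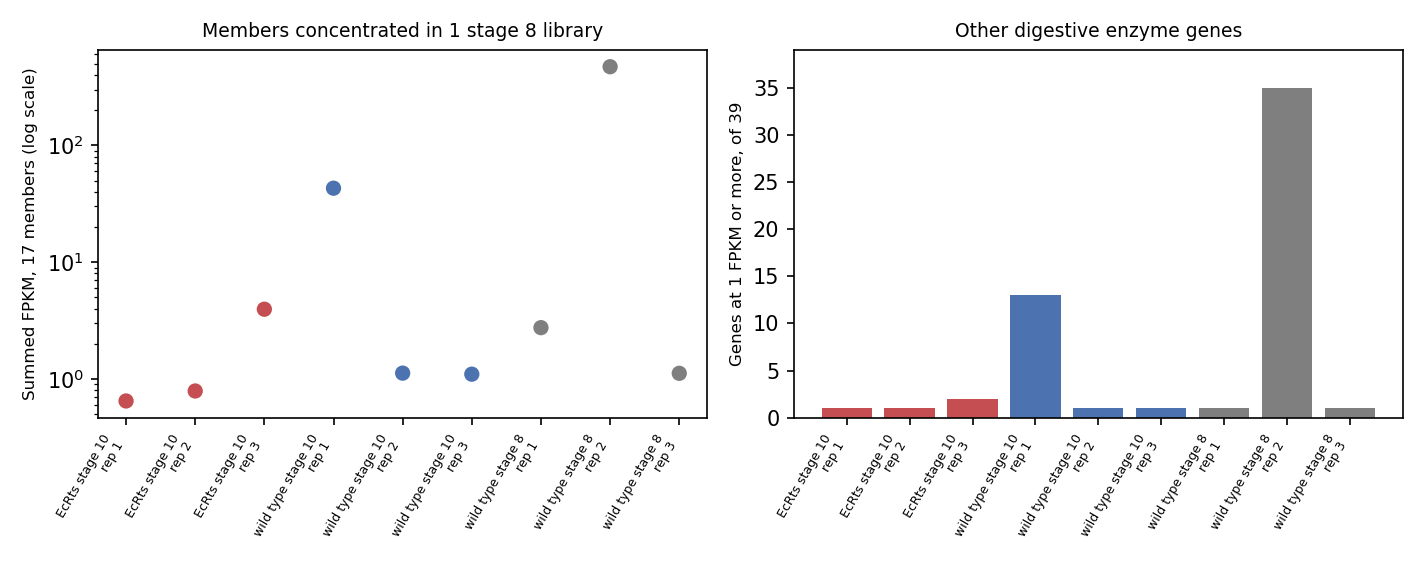
Left, summed FPKM on a log axis of the 17 falling CG genes with over 90% of their stage 8 signal in replicate 2, 1 point per library. Right, how many of 39 other digestive enzyme genes reached 1 FPKM in each library; stage 8 replicate 2 is highest in both panels, with 471.2 FPKM and 35 genes, and wild-type stage 10 replicate 1 is next.

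Without stage 8 replicate 2 the rule gave 141 genes, 133 of them among the 166. Of the 33 that dropped out, 32 had their highest stage 8 value in that library and 18 had not passed the filter. Without stage 8 replicate 2 and wild-type stage 10 replicate 1 together, 130 of the 166 still met the rule. Leaving out each wild-type library in turn, 105 genes met the rule every time. The 8 largest falls by the means all belong to genes that dropped out without stage 8 replicate 2. These genes are CG34026, CG15126, CG4363, CG8997, CG17633, CG17571, CG10472 and CG7953. They were therefore not taken as examples of a stage difference. CG15126 rested on only an implied 1.0 to 3.0 fragments in stage 8.

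The levels of the falling CG genes were mostly low. Stage 8 means ran from 3.03 to 442 FPKM with a median of 9.02 FPKM, 43 genes were under 5 FPKM and 42 were at 30 FPKM or more. The median gene stood at 49.5% of its stage 8 mean in EcRts and at 46.8% in wild-type stage 10. In wild-type stage 10, 35 genes were below 25% of the stage 8 mean and 67 were between 50% and 60% of it. Summed over all 166 genes, the level was 2786 ± 43.0 FPKM in EcRts, 2425 ± 150.4 FPKM in wild-type stage 10 and 4998 ± 333.5 FPKM in stage 8 (SD, n = 3 each).

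The genes nearest the thresholds show how narrow the choice is. Just inside the ratio threshold were CG10877, CG9300 and CG3294, at 0.60, 0.599 and 0.599 of the stage 8 mean, and just outside were CG32196, CG18273 and CG32448, at 0.60, 0.603 and 0.603. Just inside the stage 8 threshold were CG14141, CG18171 and CG17633, at 3.03, 3.05 and 3.12 FPKM, and just outside were CG31676, CG4945 and CG43287, at 2.90, 2.89 and 2.89 FPKM. In wild-type stage 10 against stage 8, 140 of the 166 genes had groups that do not overlap, which 20% of all tested genes did in the same direction. Of the 148 genes that passed the filter of 1 FPKM in 3 libraries, 139 were called lower, against 18.9% of all tested genes, but this contrast chose the genes and nothing is read from either count.

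In EcRts stage 10 the falling CG genes mostly lay nearer the wild-type stage 10 level than the stage 8 level. The return of a gene was defined as the EcRts mean minus the wild-type stage 10 mean, in percent of the gap between the stage 8 and wild-type stage 10 means, so that 0% is the wild-type stage 10 level and 100% the stage 8 level. Its median over the 166 genes was 5.98%, with quartiles of −5.41% and 21.2%. Computed from single EcRts libraries, the median was 1.88%, 3.96% and 6.73%, and the summed FPKM gave a return of 14.0%. The return was below 0% in 62 genes, between 0% and 50% in 90, and at 50% or more in 14, of which 5 reached 100%.

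The median return depends on the wild-type libraries and on the scaling. It was 10.3% without stage 8 replicate 2, 11.9% without that library and wild-type stage 10 replicate 1, and 12.6% over the 105 genes that met the rule without each wild-type library. Choosing the genes on 2 replicates of each wild-type group and measuring the return against the third gave 7.63%, 11.2% and 15.3%. Scaled without eggshell and yolk genes it was −1.97%, and with scaling on protein-coding genes it was 18.9%. In all of these settings the median gene lay much nearer wild-type stage 10 than stage 8.

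Gene by gene, the comparison of EcRts with wild-type stage 10 asks which falling CG genes differ between the shifted mutant and the wild type at the same stage. Of the 148 tested genes 36 were higher in EcRts (24.3%), where 9.93% of all 8340 tested genes were. A further 11 were lower (7.43%), where 33.9% of all tested genes were. The median log2 difference was 0.11 for the falling CG genes and −0.12 for all tested genes. The calls are from limma on log2(FPKM + 1) at an adjusted p under 0.05, and the wild-type libraries that chose the genes enter them, so these counts are not independent of the choice. The scaling decides the split over all genes, which was 828 higher and 2826 lower as deposited, 1634 and 1559 with median-of-ratios scaling, 1539 and 1744 with quantile normalization, 2249 and 1052 with protein-coding scaling, and 448 and 4969 without eggshell and yolk genes. The falling CG genes split into 54 higher and 9 lower, 44 and 10, 73 and 7, and 20 and 24 in the order of the 4 alternatives just given, so that higher calls no longer outnumbered lower ones under the last. The median log2 difference of all tested genes was 0.00, −0.02, 0.07 and −0.29 under the 4 alternatives. That of the falling CG genes was 0.23, 0.16, 0.30 and −0.04, each time the higher of the 2. The wild-type libraries that chose the genes enter these medians too, so their order is not read as a result.

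**Figure D2:**
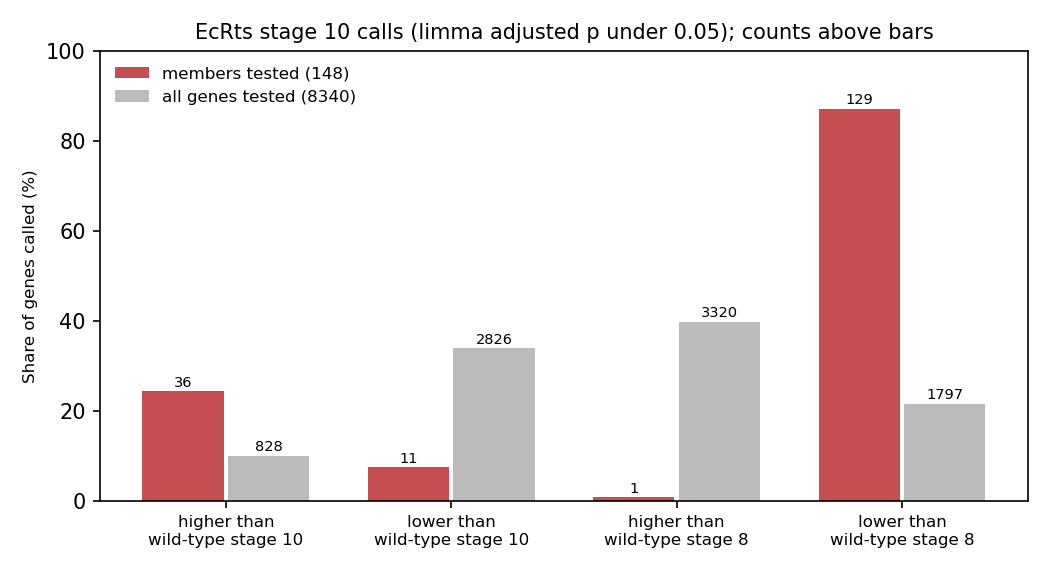
Share of genes called in EcRts stage 10 against each wild-type group (limma adjusted p under 0.05), for the 148 falling CG genes tested and for all 8340 tested genes, with counts above the bars. The falling CG genes were called higher than wild-type stage 10 in 24.3% of cases and lower than wild-type stage 8 in 87.2%.

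Against stage 8, 129 of the 148 tested genes were lower in EcRts (87.2%), where 21.5% of all tested genes were. 1 gene was higher (0.676%), where 39.8% of all tested genes were. The stage 8 libraries that chose the genes by their high values enter this comparison, and 3 of the 148 genes were under 1 FPKM in all stage 10 libraries, so the excess over all tested genes is not read as a result. Groups that do not overlap gave similar counts. By that measure 48 genes were higher in EcRts than in wild-type stage 10, where 14.1% of all tested genes were, and 17 were lower, where 43.2% of all were. Against stage 8, 131 genes were lower, where 24.1% of all tested genes were. The 2 comparisons share the EcRts libraries, so their calls for a gene are set side by side and not correlated.

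Read together, the calls place each gene. In 91 genes EcRts was lower than stage 8 with no call against wild-type stage 10, and the returns of these ran from −111.2% to 36.5% with a median of 4.37%. In 27 genes EcRts was higher than wild-type stage 10 and lower than stage 8, a part-way return with a median of 30.6%. The part-way genes were mostly abundant, with a median stage 8 mean of 54.7 FPKM. In 8 genes EcRts was higher than wild-type stage 10 with no call against stage 8, and 1 gene was higher than both; the 8 had a median stage 8 mean of 4.38 FPKM. In 11 genes EcRts was lower than wild-type stage 10, 10 genes had no call in either comparison, and 18 had not passed the filter. A missing call against stage 8 does not show that the levels are equal. The share of all tested genes with each pair of calls is not given here. The class counts therefore describe the falling CG genes only and do not show that any class is unusual.

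**Figure D3:**
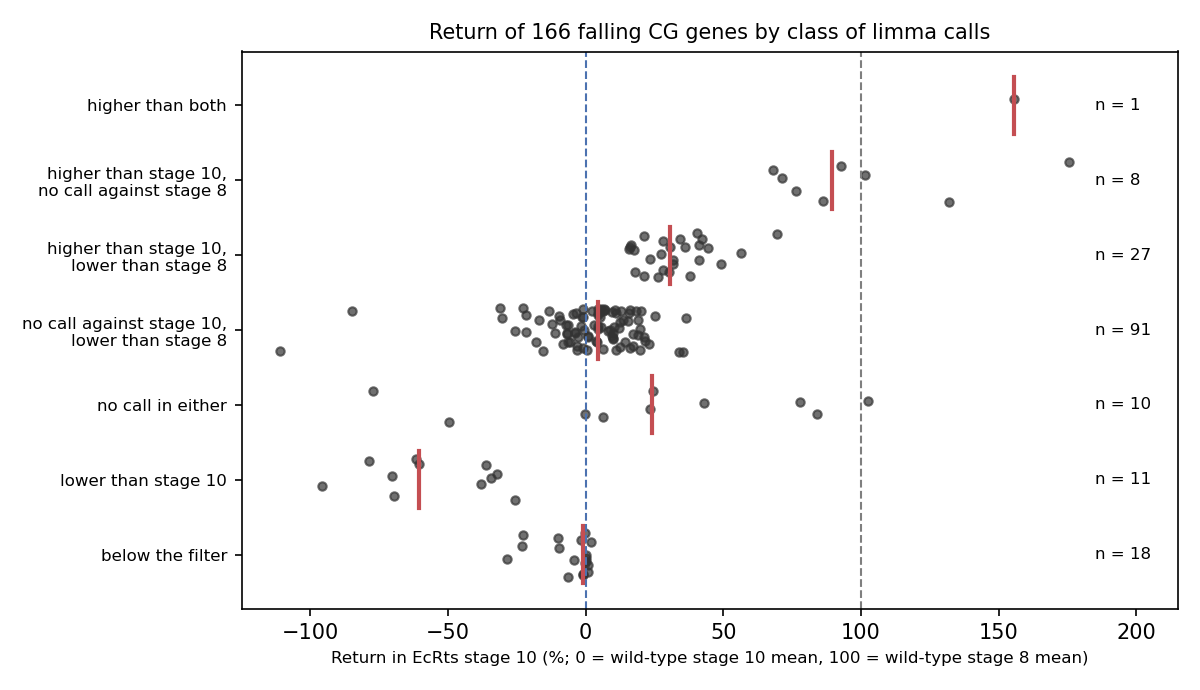
Return toward stage 8 of each of the 166 falling CG genes in percent, 1 point per gene, grouped by the pair of limma calls, with red lines at the class medians. The 91 genes lower than stage 8 with no call against wild-type stage 10 lie between −111.2% and 36.5%, with a median of 4.37%. The 27 part-way genes lie between 15.6% and 69.4%, and the 11 genes lower than wild-type stage 10 below 0%.

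Of the 10 falling CG genes with the highest stage 8 means, 7 are in a list of 17 genes for ribosome assembly and RNA handling, which was drawn up with the values known. The others are CG15093, CG5789 and CG12744. In all 17 EcRts was lower than stage 8 (21.5% of all tested genes), in 6 it was higher than wild-type stage 10 (9.93% of all) and in 0 lower (33.9% of all). Over the 148 tested falling CG genes these shares were 87.2%, 24.3% and 7.43%. The wild-type libraries that chose the genes enter these calls, so the counts are not read as a result about the list. The 17 genes stood at a median of 59.9% of stage 8 in EcRts and 54.3% in wild-type stage 10, with returns from −5.63% to 49.1%. Their median log2 difference between EcRts and wild-type stage 10 was 0.14, 0.33 with protein-coding scaling and −0.05 without eggshell and yolk genes, a setting that left 2 higher and 2 lower.

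CG8801, now Non1, encodes a nucleolar GTPase of large ribosomal subunit assembly and was the most abundant of the falling CG genes (2R, 5283865 to 5286255). It had 254.3, 227.0 and 226.9 FPKM in EcRts, 189.9, 177.1 and 175.0 FPKM in wild-type stage 10 and 381.7, 517.1 and 426.0 FPKM in stage 8. The 3 groups do not overlap, and EcRts lies in the lower part of the gap. The log2 difference was 0.38 ± 0.10 against wild-type stage 10 (SE, limma adjusted p = 0.0198) and −0.89 ± 0.10 against stage 8 (limma adjusted p = 0.000201). The call against wild-type stage 10 was lost without wild-type stage 10 replicate 2 (limma adjusted p = 0.0559), without its replicate 3 (0.0575) and without EcRts replicate 1 (0.0633), and without eggshell and yolk genes the difference was 0.19 (0.146), within a range of 0.00404 to 0.146 over 21 alternatives.

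CG7414, now eIF2A, encodes a translation initiation factor (3L, 21817840 to 21820956). It had 191.1, 195.8 and 188.6 FPKM in EcRts, 163.9, 163.5 and 146.9 FPKM in wild-type stage 10 and 267.8, 285.4 and 282.7 FPKM in stage 8. Again the groups are apart, with a return of 28.0% and a log2 difference of 0.28 ± 0.05 against wild-type stage 10 (SE, limma adjusted p = 0.00367). Without eggshell and yolk genes in the scaling the difference was 0.09 and was not called (limma adjusted p = 0.238).

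The tightest part-way return in this list was that of CG9253, now pths, a DEAD-box RNA helicase gene (2L, 21143229 to 21145146). It had 108.2, 106.8 and 110.2 FPKM in EcRts, 83.2, 80.7 and 82.6 FPKM in wild-type stage 10 and 145.6, 139.8 and 147.4 FPKM in stage 8. No library of one group comes near another group. The log2 difference was 0.40 ± 0.03 against wild-type stage 10 (SE, limma adjusted p = 0.000167), and the return was 42.3%. CG11417, the homolog of the pre-ribosomal RNA processing factor ESF1, had the highest return of the list, 49.1%, with means of 47.7 ± 0.951 FPKM in EcRts, 32.9 ± 1.68 FPKM in wild-type stage 10 and 63.1 ± 6.29 FPKM in stage 8 (SD, n = 3 each). CG7686, now LTV1, a small-subunit assembly factor gene, returned by 21.0% and the DEAD-box helicase gene CG7878 by 23.5%. The CG7686 call was lost under 6 alternatives, 5 of which leave out 1 stage 10 library, with adjusted p-values from limma of up to 0.422.

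**Figure D4:**
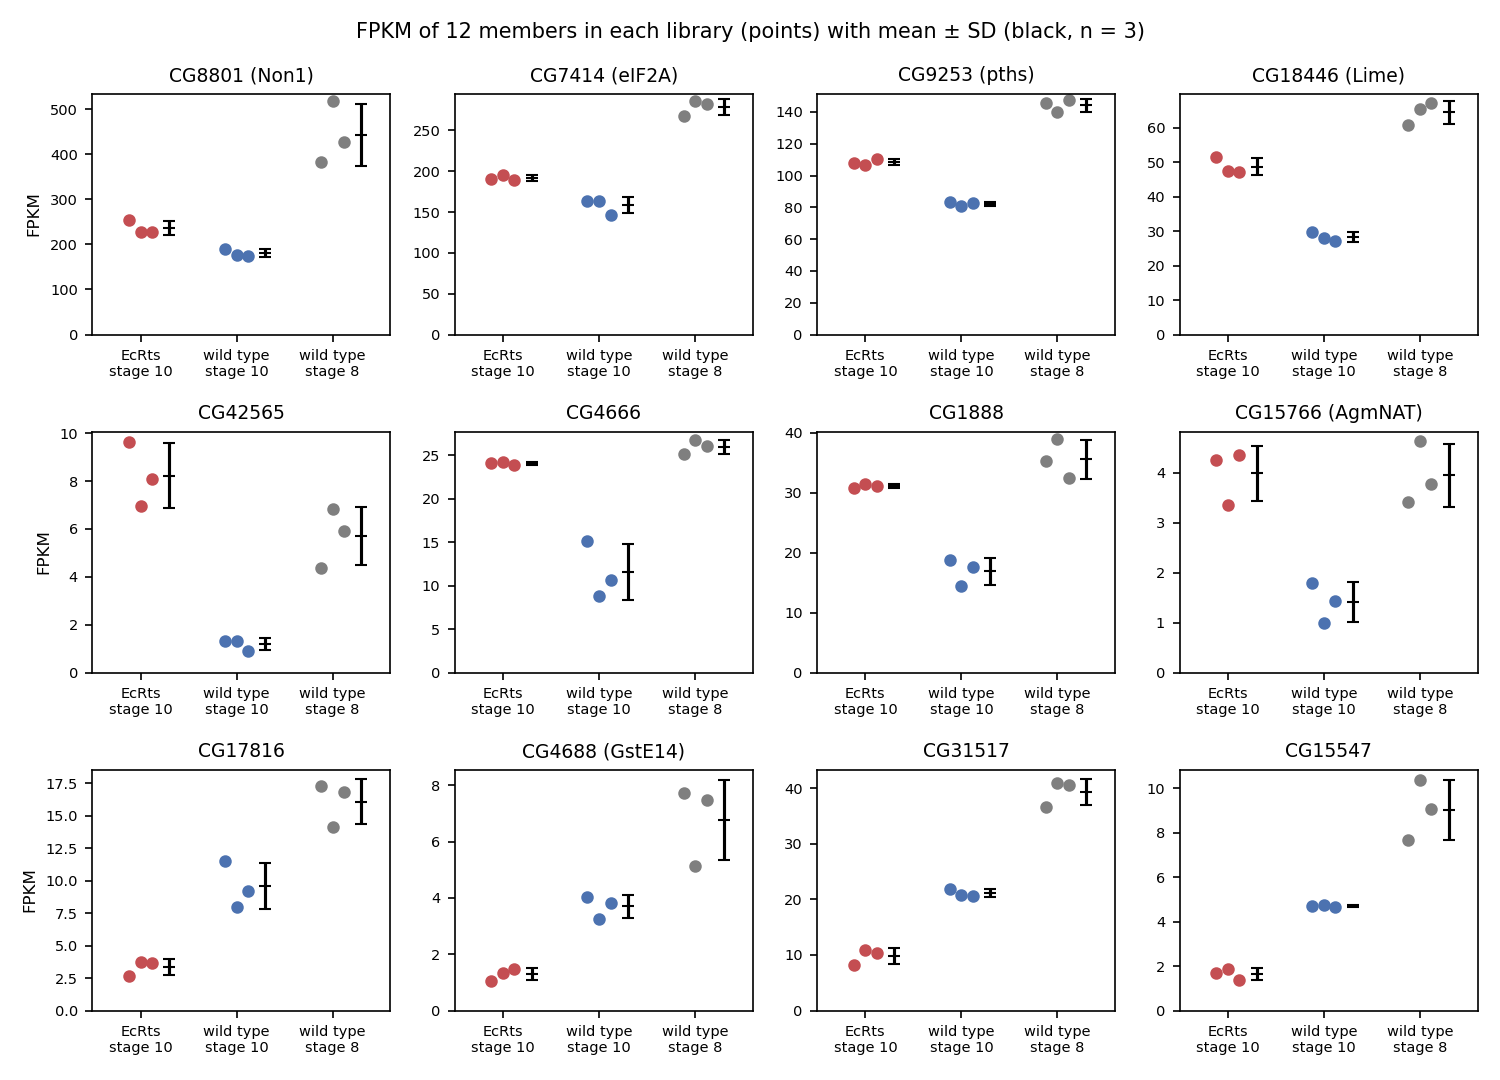
FPKM in each library (points) with mean ± SD (black, n = 3) for 12 falling CG genes, from left to right EcRts stage 10, wild-type stage 10 and wild-type stage 8. The top row shows part-way returns, the middle row levels near or above stage 8 and the bottom row levels below wild-type stage 10, as in CG17816 at 3.35 FPKM in EcRts and 9.58 FPKM in wild-type stage 10.

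The other 11 genes of the list had no call against wild-type stage 10. CG13900, now Sf3b3, a subunit of the SF3b splicing complex, had 110.9, 114.6 and 109.5 FPKM in EcRts, 109.0, 94.2 and 101.9 FPKM in wild-type stage 10 and 231.0, 208.6 and 236.9 FPKM in stage 8. All 6 stage 10 libraries lie far below all 3 stage 8 libraries. Every EcRts library was above every wild-type stage 10 library, by little and without a call (limma adjusted p = 0.125). The EcRts levels rest on an implied 37.3 to 8711.6 fragments, and the locus overlaps 9 other listed genes, snoRNA genes among them. Gar1 (CG4038), of the ribonucleoprotein that guides pseudouridine formation, and the pescadillo homolog CG4364 returned by 15.8% and 6.34%, and the assembly factors Tsr1 (CG7338) and Noc3 (CG1234) by 4.61% and 4.20%. Genes of RNA polymerase III transcription also stayed near wild-type stage 10. The polymerase subunit genes Polr3G (CG33051) and Polr3C (CG12267) had returns of −5.63% and 9.90%, and Bdp1 (CG9305), of the initiation factor TFIIIB, had −1.66%.

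Of 8 genes for surface and signalling proteins, a list also drawn up with the values known, EcRts was lower than stage 8 in all 8 (21.5% of all tested genes) and higher than wild-type stage 10 in 2 (9.93% of all). For the reason given above, these counts too are not read as a result about the list. CG13636, now sosie, a membrane protein gene needed for an ordered follicle epithelium (3R, 20659676 to 20666217), showed the lowest stage 10 share of stage 8 in this list. It had 9.22, 4.54 and 7.41 FPKM in EcRts, 2.51, 2.61 and 1.13 FPKM in wild-type stage 10 and 23.4, 34.2 and 33.8 FPKM in stage 8. EcRts was above wild-type stage 10 in every library and below every stage 8 library, with a log2 difference of 1.38 ± 0.28 (SE, limma adjusted p = 0.00611). On the log2 scale that is a large difference, but in FPKM the return was 17.5%. These levels rest on an implied 15.8 to 226.7 fragments in EcRts, 23.2 to 29.2 in wild-type stage 10 and 352.6 to 411.3 in stage 8.

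CG9634, now goe, a neprilysin-like gene that acts in the female germline (X, 16621336 to 16645943), had 12.03, 12.5 and 12.2 FPKM in EcRts, 8.43, 8.20 and 7.80 FPKM in wild-type stage 10 and 14.8, 13.5 and 13.8 FPKM in stage 8. Its return of 69.4% was the highest of the part-way genes. Its locus contains 5 other genes, and no source used here gives the strand setting of the counting. CG5789, now Cftr, an ABC transporter gene, had 61.2, 66.3 and 63.9 FPKM in EcRts, 64.0, 66.7 and 58.8 FPKM in wild-type stage 10 and 123.3, 136.7 and 140.8 FPKM in stage 8. Here the stage 10 groups overlap fully, and the return was 0.90%. The immunoglobulin-family gene plum (CG6490), rau (CG8965), which acts in receptor tyrosine kinase signalling, and the endocytic receptor gene Cubn (CG32702) returned by 7.11%, 8.73% and 19.1% with no call against wild-type stage 10. The neprilysin-like gene Nepl4 (CG9505) had a return of −9.86%, and Dhit (CG5036), a regulator of G protein signalling, had 13.0%.

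The 11 genes assigned to metabolism went in several directions. EcRts was higher than wild-type stage 10 in 3 (9.93% of all tested genes), lower in 1 (33.9% of all) and lower than stage 8 in 8 (21.5% of all). As for the other 2 lists, these counts are not read as a result about the list. CG15093, for a 3-hydroxyisobutyrate dehydrogenase of valine breakdown, had means of 106.3 ± 6.84 FPKM in EcRts, 83.3 ± 7.81 FPKM in wild-type stage 10 and 170.7 ± 21.1 FPKM in stage 8 (SD, n = 3 each). Agpat4 (CG4753), an acyltransferase gene of phospholipid synthesis, had 38.4 ± 1.44 FPKM in EcRts, 28.6 ± 1.26 FPKM in wild-type stage 10 and 60.8 ± 3.15 FPKM in stage 8 (SD, n = 3 each). These part-way returns were 26.4% and 30.4%, and the CG15093 call was lost under 5 alternatives, 4 of which leave out 1 stage 10 library. AgmNAT (CG15766), an agmatine N-acetyltransferase gene, was the third and is given with the full returns.

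GstE14 (CG4688) was the metabolic gene that was lower than wild-type stage 10 (2R, 9127234 to 9128518). It encodes a glutathione transferase that steroid-producing cells need for ecdysteroid synthesis. It had 1.05, 1.33 and 1.46 FPKM in EcRts, 4.03, 3.25 and 3.83 FPKM in wild-type stage 10 and 7.73, 5.14 and 7.46 FPKM in stage 8. Every EcRts library was below every wild-type stage 10 library, and every one of these below stage 8. The log2 difference between EcRts and wild-type stage 10 was −1.04 ± 0.15 (SE, limma adjusted p = 0.00135). These levels rest on an implied 30 to 51 fragments in EcRts, 56 to 84 in wild-type stage 10 and 110 to 157 in stage 8.

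The gene whose EcRts level exceeded both wild-type groups was CG42565, an uncharacterised gene (2R, 18547988 to 18548894). It had 9.64, 6.96 and 8.09 FPKM in EcRts, 1.32, 1.32 and 0.899 FPKM in wild-type stage 10 and 4.39, 6.82 and 5.92 FPKM in stage 8. All EcRts libraries were above all others, the lowest of them close to the highest stage 8 library. The log2 difference against wild-type stage 10 was 2.08 ± 0.17 (SE, limma adjusted p = 0.000118) and held under all 21 alternatives, while that against stage 8 was 0.47 ± 0.17 (limma adjusted p = 0.0392) and was called under 7 of 21. The levels rest on an implied 119 to 174 fragments in EcRts, 10 to 17 in wild-type stage 10 and 55 to 90 in stage 8.

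The 8 genes with no call against stage 8 were CG11825, CG9338, AgmNAT, CG14275, CG4666, CG1888, CG14410 and CG34164, with returns from 67.9% to 175.4%. Apart from CG1888 and CG4666 they were low, at stage 8 means of up to 5.09 FPKM. CG1888 (2R, 5429624 to 5435640) had 30.9, 31.5 and 31.1 FPKM in EcRts, 18.7, 14.4 and 17.6 FPKM in wild-type stage 10 and 35.3, 39.0 and 32.4 FPKM in stage 8. CG4666 (X, 5970106 to 5971587) had 24.1, 24.2 and 23.9 FPKM in EcRts, 15.1, 8.83 and 10.6 FPKM in wild-type stage 10 and 25.2, 26.8 and 26.1 FPKM in stage 8. In both genes EcRts varied little, was far above wild-type stage 10 and lay just below the lowest stage 8 library. The CG1888 levels rest on uneven estimates, an implied 90.4 to 1480.5 fragments in EcRts, 342.2 to 529.7 in wild-type stage 10 and 43.1 to 1164.1 in stage 8.

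The log2 difference of EcRts against stage 8 was −0.18 ± 0.10 for CG1888 and −0.11 ± 0.15 for CG4666 (SE, limma adjusted p = 0.141 and 0.564). It was called under 1 of 21 alternatives for CG1888 and 0 of 21 for CG4666. Against wild-type stage 10 it was 0.85 ± 0.10 and 1.03 ± 0.15 (limma adjusted p = 0.0005 and 0.00146). AgmNAT (X, 5708897 to 5709853) had 4.26, 3.35 and 4.35 FPKM in EcRts, 1.79, 0.993 and 1.42 FPKM in wild-type stage 10 and 3.42, 4.64 and 3.78 FPKM in stage 8. Its EcRts and stage 8 libraries are intermixed, and the return was 101.6%. CG11825 had the highest return of all, 175.4%, with 6.96, 5.45 and 5.64 FPKM in EcRts, 2.29, 1.79 and 2.49 FPKM in wild-type stage 10 and 5.45, 4.52 and 3.14 FPKM in stage 8. Its stage 8 libraries were spread, and EcRts was not called against them (limma adjusted p = 0.0755).

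CG9338 (2L, 20865215 to 20867709) had means of 6.08 ± 0.456 FPKM in EcRts, 1.98 ± 0.433 FPKM in wild-type stage 10 and 5.09 ± 1.37 FPKM in stage 8 (SD, n = 3 each). CG14275 had 4.23 ± 0.438 FPKM in EcRts, 2.20 ± 0.71 FPKM in wild-type stage 10 and 4.39 ± 0.64 FPKM in stage 8 (SD, n = 3 each). Both lay near stage 8 in EcRts. These 8 genes and CG42565 met the rule without each wild-type library in turn. Among abundant genes the nearest to this behaviour was Lime (CG18446), a zinc finger gene known from immune and metabolic regulation, with 51.6, 47.4 and 47.3 FPKM in EcRts, 29.8, 28.0 and 27.1 FPKM in wild-type stage 10 and 60.8, 65.5 and 67.3 FPKM in stage 8. Its return was 56.4% and the 3 groups do not overlap. Other part-way genes with a known product were Atg101 (CG7053), of the complex that starts autophagy, at 41.3%, and Smyd5 (CG3353), a lysine methyltransferase gene, at 15.6%.

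In 11 genes the mutant went further from stage 8 than the wild type did. CG17816 had the lowest return of these, −95.7% (3R, 3681304 to 3712455). It had 2.65, 3.72 and 3.68 FPKM in EcRts, 11.5, 8.00 and 9.22 FPKM in wild-type stage 10 and 17.3, 14.1 and 16.8 FPKM in stage 8. The 3 groups form 3 separate steps. The log2 difference between EcRts and wild-type stage 10 was −1.28 ± 0.15 (SE, limma adjusted p = 0.000575).

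The most abundant of the 11 genes was CG9286, with means of 39.8 FPKM in EcRts, 53.5 FPKM in wild-type stage 10 and 96.0 FPKM in stage 8. Its log2 difference against wild-type stage 10 was −0.42 ± 0.12 (SE, limma adjusted p = 0.0256). CG31517, the most abundant of the 8 with the lowest log2 differences (3R, 9774157 to 9775052), had 8.19, 11.0 and 10.4 FPKM in EcRts, 21.9, 20.7 and 20.7 FPKM in wild-type stage 10 and 36.6, 40.9 and 40.6 FPKM in stage 8. CG15547 had 1.69, 1.89 and 1.37 FPKM in EcRts, 4.70, 4.75 and 4.66 FPKM in wild-type stage 10 and 7.67, 10.4 and 9.06 FPKM in stage 8, and its locus overlaps Sap-r. CG31517 and CG15547 show the same 3 steps, with log2 differences against wild-type stage 10 of −1.04 ± 0.10 and −1.11 ± 0.12 (SE, limma adjusted p = 0.000238 and 0.000351). CG7781 (2L, 8321280 to 8325262) had 2.06 ± 0.188 FPKM in EcRts, 4.43 ± 0.51 FPKM in wild-type stage 10 and 7.83 ± 0.651 FPKM in stage 8 (SD, n = 3 each). It lies 2193 bases from CG14275, one of the genes near the stage 8 level in EcRts, so that neighbours among the falling CG genes went opposite ways. CG17029, CG30485 and CG32773, which the current annotation lists as a long noncoding RNA, had log2 differences of −0.66, −0.48 and −0.65. The CG17029 call was lost under 3 alternatives and the CG30485 call under 7, most of which leave out 1 library.

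Of the 10 genes with no call in either comparison, Drat (CG1600), a gene known from cell death after low oxygen or alcohol, had 5.65, 7.38 and 6.10 FPKM in EcRts, 3.20, 3.39 and 3.46 FPKM in wild-type stage 10 and 4.68, 11.0 and 3.25 FPKM in stage 8. The stage 8 mean behind its return of 102.4% is carried by replicate 2, and neither comparison was called (limma adjusted p = 0.0945 against wild-type stage 10 and 0.711 against stage 8). Drat was singled out after its values were seen.

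The falling CG genes are not spread evenly over the chromosomes. Of the 166, 53 lie on chromosome arm 2R (31.9%), where 19.4% of the 3132 CG genes with a stage 8 mean of at least 3 FPKM lie. Today's annotation matched 164 of the 166, lists 158 as protein-coding and gives 46 a symbol other than a CG number. The predicted proteins had a median of 380.5 residues, against 398 for the 3132 genes, and 13.3% were under 150 residues, against 10.5%. The median number of exons was 3 in both. These are descriptions with no test.

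In 21 pairs, covering 28 genes, falling CG genes lay within 5000 bases of each other. The longest run was 5 genes on 2R, CG42565, CG42566, CG4250, CG30273 and CG30269, from 18547988 to 18556352. CG42566 had 9.29, 12.2 and 12.5 FPKM in EcRts, 16.0, 9.05 and 12.1 FPKM in wild-type stage 10 and 39.3, 41.3 and 42.4 FPKM in stage 8. CG4250 had 42.4, 43.5 and 40.2 FPKM in EcRts, 35.1, 28.2 and 26.9 FPKM in wild-type stage 10 and 68.5, 55.3 and 61.6 FPKM in stage 8. The return was 155.7% in CG42565, −3.57% in CG42566, 37.7% in CG4250, 5.72% in CG30273 and −3.11% in CG30269, so close neighbours differed in EcRts. On 2L, the neighbours CG8997, CG7916 and CG7953 were all carried by stage 8 replicate 2. Of all 166 genes, 77 overlap another listed gene, and for these the split of fragments is uncertain.

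**Figure D5:**
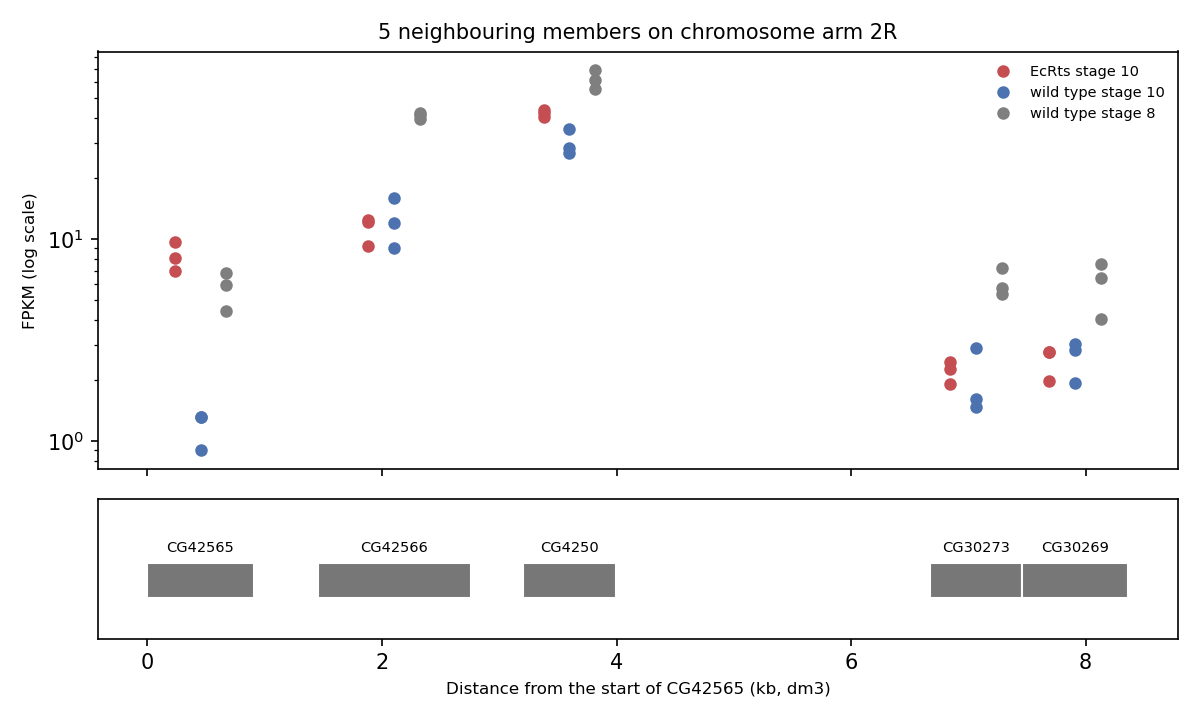
FPKM on a log axis of 5 neighbouring falling CG genes on 2R, 3 libraries per group, above a map of their loci in kb from the start of CG42565; within a gene the groups are set side by side for legibility. In CG42565 the EcRts points lie above stage 8, in CG4250 between the wild-type groups, and in the other 3 genes among the wild-type stage 10 points.

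Genes without a CG number that met the same 2 thresholds give a measure of how ordinary this is. There were 461 of them, most of them not protein-coding. Over all 461 the median return was 24.6%, and 181 were at 50% or more. Of the 371 tested, EcRts was higher than wild-type stage 10 in 111 (29.9%), lower in 19 (5.12%) and lower than stage 8 in 155 (41.8%). The 154 protein-coding genes among the 461 gave other values. Among the 129 of these that were tested, EcRts was higher than wild-type stage 10 in 36 (27.9%), lower in 15 (11.6%) and lower than stage 8 in 117 (90.7%), and the median return of the 154 was 2.05%. The corresponding shares of the falling CG genes were 24.3%, 7.43% and 87.2%, and the median return was 5.98%. The differences between these sets were not tested.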

How the data were processed

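The deposited values are gene-level FPKM, made by the authors with Cufflinks 2.02 after CASAVA 1.8.2, Bowtie2 2.0.6 and TopHat2 2.0.7 on dm3, per the submitters' processing notes. The sources used here name no annotation release or strand setting and hold no read counts. Implied fragments were derived from the deposited confidence limits. Sums over falling CG genes include every gene as listed. Group means are arithmetic. The test took the 8340 genes that reached 1 FPKM in 3 or more of the 9 libraries, leaving out 21 genes listed at 0 after a failed estimate. limma 3.58.1 (R 4.3.3) was fitted to log2(FPKM + 1) of all libraries with 1 mean per group, an intensity trend and 6 residual degrees of freedom, with Benjamini-Hochberg adjustment over all tested genes, two-sided, at 0.05. The log2(FPKM + 1) scale understates differences of low genes, and 3 genes passed the filter with all stage 10 libraries under 1 FPKM. The fit was tested on simulated data with independent normal spread. These held no outlying library, scaling difference or choice of genes, so that test does not bear on those points. The p-values reflect sample-to-sample spread, which may be technical, since nothing says that they came from separate animals or days. Examples are the 10 genes with the highest stage 8 mean, the 8 largest falls, the 8 largest returns and 8 lowest log2 differences among called genes whose groups do not overlap, threshold neighbours, and genes with a known product. The genes and lists were chosen with earlier results of these data known. Current names, gene types, protein lengths and exon numbers came from Ensembl release 115, and the dm3 positions from the deposited loci.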

Additional observations from a re-analysis of the deposited data

How the results depend on the processing

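Of 6 summary results under all alternatives, 98 values stayed within 1.5 times the main count or within the spread of the median return, 41 moved and 1 changed sign. The median return was −1.97% with scaling without eggshell and yolk genes, 12.3% with median-of-ratios scaling, 18.9% with protein-coding scaling, 9.16% on the log2 scale, 10.1% with group medians, 11.9% without stage 8 replicate 2 and wild-type stage 10 replicate 1, 12.6% over the 105 genes that met the rule without each wild-type library (an alternative, like the one before, added after the data were seen), and 11.2% and 15.3% when chosen without replicate 2 or 3 of the wild type and measured on it; leaving out 1 library gave 4.21% to 10.3%. The rule gave 285 genes with quantile normalization, 284 with median-of-ratios scaling, 99 at a ratio of 0.5, and 141 to 189 when 1 library was left out. Genes higher in EcRts than wild-type stage 10 numbered 73 (protein-coding scaling), 20 (without eggshell and yolk genes), 21 (ratio 0.5) and 23 to 38 on leaving out 1 library, 23 without wild-type stage 10 replicate 3, and 40 without the 2 wild-type libraries named above. Lower genes numbered 7, 24, 2 and 7 to 13 in that order, 7 without EcRts replicate 1, and 6 over the 105 genes. Genes lower than stage 8 numbered 70 at a ratio of 0.5 and 121 to 129 on leaving out 1 library. Genes higher than stage 8 numbered 0 with a pseudocount of 0.1, no filter, a filter of 5 FPKM, median-of-ratios, quantile and eggshell-free scaling, the replicate block and only 6 libraries, 2 with protein-coding scaling, group medians and without stage 8 replicate 2 and wild-type stage 10 replicate 1, and 0 to 2 on leaving out 1 library. Apart from ratio and library changes, which alter the genes or samples used, the cause was not tested.

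Same-numbered libraries correlated in their deviations at −0.04 to 0.23 and differently numbered ones at −0.23 to 0.17, and 2 of 9 deviated most like their own number. The main fit therefore did not pair them. With 3 libraries per group these values cannot exclude a shared day or batch. With the replicate block 32 genes were higher than wild-type stage 10, 12 lower, 129 lower than stage 8 and 0 higher. Of 24 called examples 18 kept their call under every alternative and none changed sign. CG15093 lost it under 5 alternatives, CG17029 under 3, CG30485 under 7, CG7414 under 1, CG7686 under 6 and CG8801 under 4. The depth behind low genes is given beside CG42565, GstE14 and sosie, and calls were not compared by depth.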
